A study of Mus musculus with 40 samples.

Results

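Follicular B cells are mature, resting B cells that recirculate through the follicles of spleen and lymph nodes. DNA methylation was compared here between follicular B cells of mice lacking Tet2 (genotype TET2_KO in the labels, written Tet2KO below) and of wild-type mice (NORMAL in the labels, WT below), with 3 libraries in each group. The units described are 100 bp tiles of the mouse genome. They were taken by 1 rule that uses no level: a tile had to lie on an autosome and have a value in all 6 libraries. This rule kept 423656 of the 932955 autosomal tiles in a table of 971845 tiles. Methylation was read by reduced representation bisulfite sequencing (RRBS), which samples CpG-rich restriction fragments. It reads the share of cytosines in them that bisulfite leaves unconverted, called methylated here.

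The TET enzymes convert the methyl mark on cytosine to oxidised forms, which can then be lost through cell division or base repair. The values here are a single fraction per tile and library, so oxidised forms were not measured apart from the methyl mark. Tet2 and Tet3 can act on the same sites, and a knockout of Tet2 alone leaves the Tet3 gene in place. In the B lineage TET enzymes are known for the loss of methylation at enhancers as cells mature from the pro-B stage in the bone marrow.

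WT libraries 13, 14 and 15 came from a male of 8 weeks, a male of 6 weeks and a female of 6 weeks. Tet2KO libraries 16, 17 and 18 came from females of 8, 6 and 6 weeks. All mice were C57/bl, and per the labels' protocols the knockouts were inducible and driven by the Mb1 promoter, whose gene encodes a chain of the B-cell receptor complex and is on early in B-cell development. Of the other groups used below, follicular Tet3KO libraries 19 to 21 and follicular double-knockout (DKO, lacking Tet2 and Tet3) libraries 22 to 24 each held 2 males and 1 female, of 7 weeks except the female DKO of 6 weeks. The pro-B libraries were of WT (1 to 3), Tet2KO (4 to 6), Tet3KO (7 to 9) and DKO (10 to 12). They repeat the sexes and ages of the follicular libraries of the same genotype. The labels do not say whether both stages came from the same mice. Pro-B Tet3KO libraries 7 and 9, which choose a list below, came from males of 7 weeks. Whether the 3 libraries of a genotype are 3 mice is not stated, and p-values therefore cover only the spread between these libraries, which may be technical. Both genotypes hold females only through WT library 15, so sex and genotype can hardly be told apart, and values against that library alone are given in places. Cells were sorted in bulk, so a change of level within a cell and a change in the makeup of the sorted cells cannot be told apart. The table holds no expression values, so the cell type and the loss of Tet2 were not checked against it. The females of both groups had values at 51 to 63 tiles of chromosome Y and the WT males at 334 and 380, in the direction the sex labels give.

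The deposited values are methylation fractions, given here as percentages, without read counts. The depth behind a value is therefore unknown, and few reads may lie behind a level of 0 or 100%. As a rough guide to depth, the number of tiles with a value was 546389 to 608149 in the WT libraries and 533586 to 580328 in the Tet2KO libraries. Over the 423656 tiles 2 libraries of a group differed by a mean of 4.95 to 5.37 points per tile within WT, 5.28 to 5.58 points within Tet2KO, and 4.97 to 5.75 points between the groups. The genotypes were thus about as far apart at a single tile as replicates were.

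Averaged over many tiles, follicular cells without Tet2 were slightly more methylated than WT cells, and the 2 groups did not overlap. The mean over all 423656 tiles was 63.5%, 63.1% and 63.4% in WT libraries 13 to 15 and 63.8% in each of Tet2KO libraries 16 to 18. The group means were 63.4% ± 0.201 and 63.8% ± 0.0375 (SD, n = 3 each), a difference of 0.458 points (SE 0.118). The two-sided exact permutation p was 0.1, which is the smallest that 3 against 3 libraries can give. The median difference of a tile was 0, with 49.4% of tiles higher in Tet2KO, 42.7% lower and 7.85% equal. Against the female WT library 15 alone, the 3 Tet2KO libraries were 0.427 points higher.

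Tiles were then split by their mean in the pro-B WT libraries, which take no part in the follicular comparison. At least 2 pro-B WT values were needed, so 115233 tiles (27.2%) fell in none of the 3 classes. Tet2KO was higher by 0.447 points (SE 0.138) at those unclassed tiles. The shift was widest at tiles that were partly methylated at the pro-B stage. At the 44919 tiles of 20 to 80% in pro-B WT, follicular WT libraries stood at 68.3%, 67.3% and 67.7%, and follicular Tet2KO libraries at 69.0%, 69.2% and 69.2%. Tet2KO was higher by 1.39 points (SE 0.312, exact permutation p = 0.1 with n = 3 each), and the median tile was 0.994 points higher. At the 121612 tiles under 20%, most of them unmethylated, the level went from 4.10% ± 0.0487 to 4.46% ± 0.00946, which is 0.357 points higher (SE 0.0286, exact permutation p = 0.1, n = 3 each). At the 141892 tiles above 80% it went from 93.0% ± 0.209 to 93.3% ± 0.0602, which is 0.26 points higher (SE 0.125, exact permutation p = 0.1, n = 3 each), and 0.141 points without WT library 14. Tet2KO libraries lay above every WT library in each of these 3 classes. The differences of the lower and upper classes were thus smaller than the general shift, and that of the partly methylated class was larger. Centring each library on a common mean takes the same amount from every class and leaves -0.0795, -0.177 and 0.950 points, which restates that order and does not test it. Whether the general shift of 0.458 points is a property of the cells or of the libraries was not tested.

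**Figure D1:**
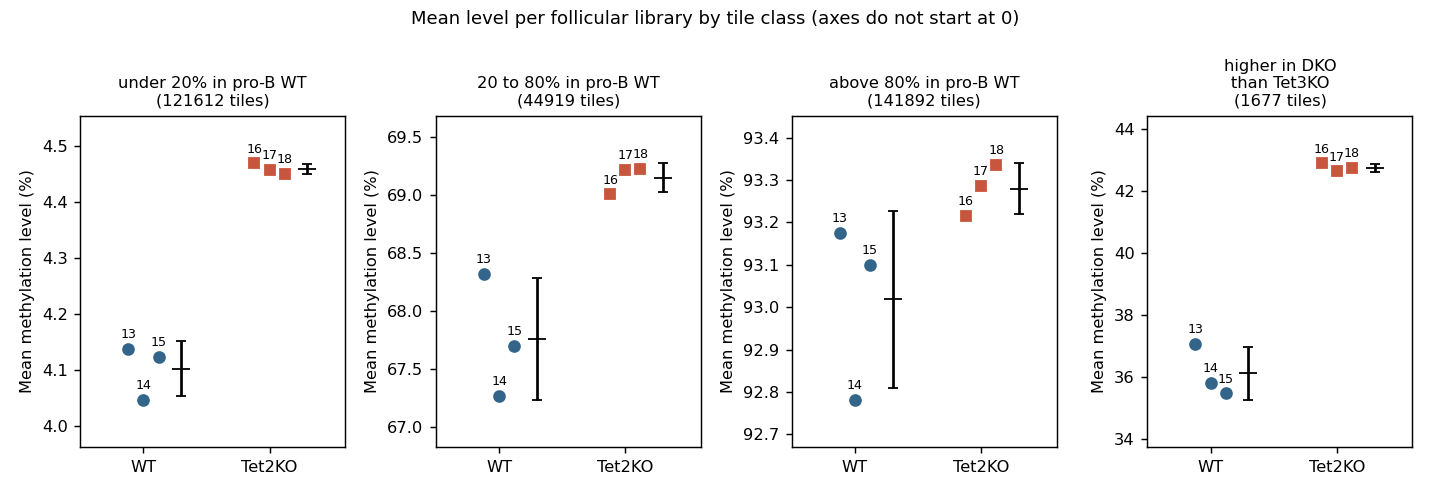
Mean methylation level (%) of each follicular library, numbered, in WT (circles) and Tet2KO (squares), for tiles under 20%, from 20 to 80% and above 80% in pro-B WT, and for tiles higher in DKO than in Tet3KO; bars are the group mean ± SD (n = 3). The 3 Tet2KO libraries lie above the 3 WT libraries in each panel, by 0.357, 1.39, 0.26 and 6.62 points.

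The difference at partly methylated tiles was spread over the genome. The Tet2KO mean was above the WT mean on all 19 autosomes, by 0.867 points on chromosome 6 to 2.00 points on chromosome 19, and the libraries of the groups overlapped only on chromosome 14. The number of neighbouring tiles within 500 bp, of 10 possible, was used as a measure of how CpG-rich the surroundings are, since RRBS covers CpG islands densely. Partly methylated tiles were higher in Tet2KO by 1.19 points (SE 0.267) where they had 0 to 3 neighbours, by 1.67 points (SE 0.366) with 4 to 7, and by 1.48 points (SE 0.462) with 8 to 10. These 3 values lie within their errors of each other. Among tiles under 20% in pro-B WT the difference was 0.967 points (SE 0.0737) at isolated tiles (0 to 3 neighbours), from 11.4% to 12.3%. It was 0.166 points (SE 0.0368) at densely tiled ones (8 to 10 neighbours), from 1.81% to 1.97%.

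**Figure D2:**
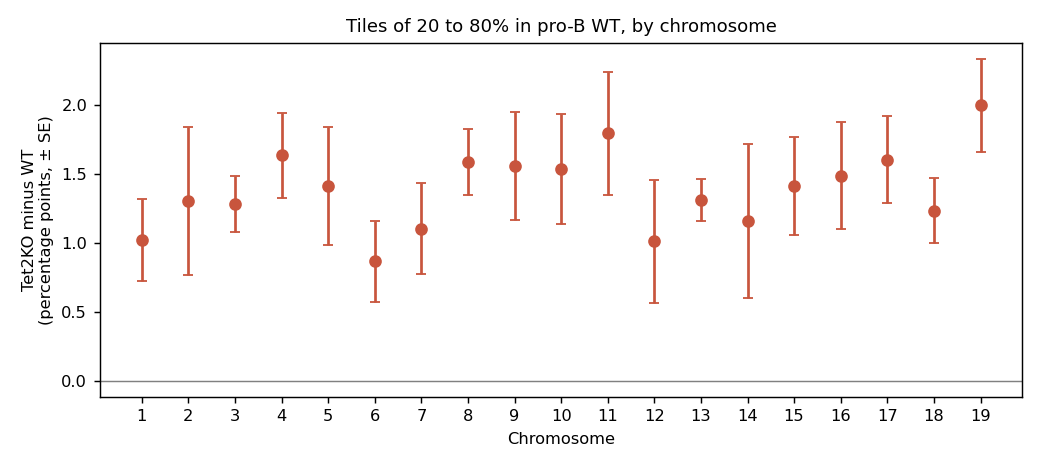
Difference of follicular Tet2KO and WT means in percentage points (± SE, n = 3 each) at tiles of 20 to 80% in pro-B WT, for each autosome. All 19 values are above 0, from 0.867 to 2.00 points.

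No single tile passed the main test used to call a change, and a few did in other fits. A tile was called where limma's moderated test over the 12 follicular libraries gave a Benjamini-Hochberg adjusted p under 0.05 and its group means lay 20 points or more apart. Limma called 0 of 423656 tiles higher (0%) and 0 lower (0%) in Tet2KO, with 19212 tiles (4.53%) at an unadjusted p under 0.05. With sex as a covariate limma called 7 higher and 1 lower, a fit whose sex term comes from the WT, Tet3KO and DKO groups, since Tet2KO holds females only. Fitted on logit values, it called 2 higher and 2 lower. Leaving out WT library 13, 14 or 15 gave 24, 12 or 10 higher and 1 lower each time, and leaving out Tet2KO library 16, 17 or 18 gave 1, 4 or 4 higher and 8, 17 or 10 lower. The direction of these counts thus followed the group that was reduced. An adjusted p under 0.05 without the size requirement was reached by 18 tiles, 14 of them higher and 4 lower, with differences of 2.73 to 18.2 points. In 15 of the 18 all 3 libraries of 1 group stood at exactly 0 or 100%, where the spread is 0. The widest, chosen after its values were seen, was chromosome 2, 31353301 to 31353400, at 77.8% in WT and 96.0% in Tet2KO (limma adjusted p = 0.0197).

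With the spread estimated over all 24 libraries of both stages, limma called 9 tiles higher and 0 lower. These tiles are named here with their values known. Their means were 49.9% to 77.6% in WT follicular cells and 79.3% to 100% in Tet2KO. Chromosome 12, 118796001 to 118796100, stood at 43.3%, 55.6% and 55.3% in the WT libraries and at 100%, 90.9% and 87.5% in Tet2KO (limma adjusted p = 0.0158 over 24 libraries and 0.155 over 12). Chromosome 17, 27099101 to 27099200, stood at 65.9%, 57.0% and 49.4% in WT and at 100%, 95.1% and 100% in Tet2KO (limma adjusted p = 0.0273 and 0.0921). At chromosome 4, 45800601 to 45800700, WT had a mean of 55.9% and Tet2KO of 92.9%. Chromosome 2, 31353201 to 31353300, which adjoins the tile of 18.2 points above, stood at 49.9% and 79.3%. Chromosome 9, 44321901 to 44322000, with levels of 70.6%, 75.5% and 66.9% in WT and 92.6%, 93.4% and 90.6% in Tet2KO, had the lowest adjusted p over the 12 follicular libraries among the 9 (0.0747). The other 4 were higher by 20.3 to 26.4 points, on chromosomes 5, 6, 15 and 19. At 8 of the 9 tiles Tet3KO and DKO cells also stood above 89%. The exception was the tile of chromosome 2, at 53.0% in Tet3KO and 95.7% in DKO.

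The same loss of Tet2 can be seen in cells that also lack Tet3, by comparing follicular DKO with follicular Tet3KO. That comparison shares no library with Tet2KO and WT, and its groups have the same sexes. A list was made of the tiles at which all 3 DKO libraries lay above all 3 Tet3KO libraries by at least 20 points in the mean. It held 1677 of 324168 tiles (0.517%), and the opposite list held 547 (0.169%). At the 1677 tiles follicular WT libraries stood at 37.1%, 35.8% and 35.5%, and follicular Tet2KO libraries at 42.9%, 42.6% and 42.7%. The groups did not overlap, and the difference was 6.62 points (SE 0.494) against 0.458 points over all tiles. The median tile was 5.30 points higher, against 0 over all tiles, and 72.9% of the list's tiles were higher against 49.4%. Against the female WT library alone the difference was 7.27 points. At the 547 tiles of the opposite list WT stood at 63.3% ± 0.721 and Tet2KO at 64.1% ± 0.621, with overlap (0.752 points, SE 0.549).

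The groups were then compared tile by tile. Over all tiles the 3 Tet2KO libraries lay above the 3 WT libraries at 20334 tiles (4.8%) and below them at 12858 (3.04%). Among the 1677 tiles higher in DKO than in Tet3KO they lay above at 380 (22.7%) and below at 30 (1.79%). With at least 10 points asked as well, 6917 tiles were higher (1.63%) and 3666 lower (0.865%) over all tiles, and 311 (18.5%) and 19 (1.13%) in the list. With at least 20 points, the counts were 1925 higher (0.454%) and 696 lower (0.164%) over all tiles, and 158 higher (9.42%) and 5 lower (0.298%) in the list. At 608 of the 1677 tiles (36.3%) Tet2KO and WT differed by less than 5 points, so a large part of the tiles that were higher in DKO than in Tet3KO differed little between Tet2KO and WT. Such near-equal tiles made up 77.9% of all tiles, most of which lie near 0 or 100%, and 53.9% of the partly methylated class. That class, which held 38.9% of the list's tiles, is a nearer background than all tiles. In it the Tet2KO libraries lay above WT at 7.47% of tiles and below at 3.82%. By at least 20 points, 1.63% of the class were higher and 0.545% lower.

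The size of the Tet2KO difference followed the size of the DKO difference. Where DKO exceeded Tet3KO by 10 to 20 points, Tet2KO exceeded WT by 1.91 points (SE 0.257, 10684 tiles). At 20 to 30 points it was 4.60 (SE 0.577, 1767 tiles), at 30 to 40 points 7.97 (SE 0.385, 436 tiles) and at 40 to 50 points 9.97 (SE 0.778, 167 tiles). Beyond that it was 9.69 (SE 1.11, 78 tiles) and 8.41 (SE 0.821, 74 tiles), within the errors of the 40 to 50 point bin. The WT level was lower in each of these bins than in the one before, from 61.4% to 6.28%. On the other side, where DKO lay 20 to 30 points below Tet3KO, Tet2KO was 0.855 points above WT (SE 0.357, 876 tiles). Across single tiles the 2 differences were only weakly related (Pearson r = 0.0857, Spearman rho = 0.0300 over 324168 tiles, whose 2 differences share no library). Within the partly methylated class r was 0.116 and rho 0.0693 (35969 tiles).

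**Figure D3:**
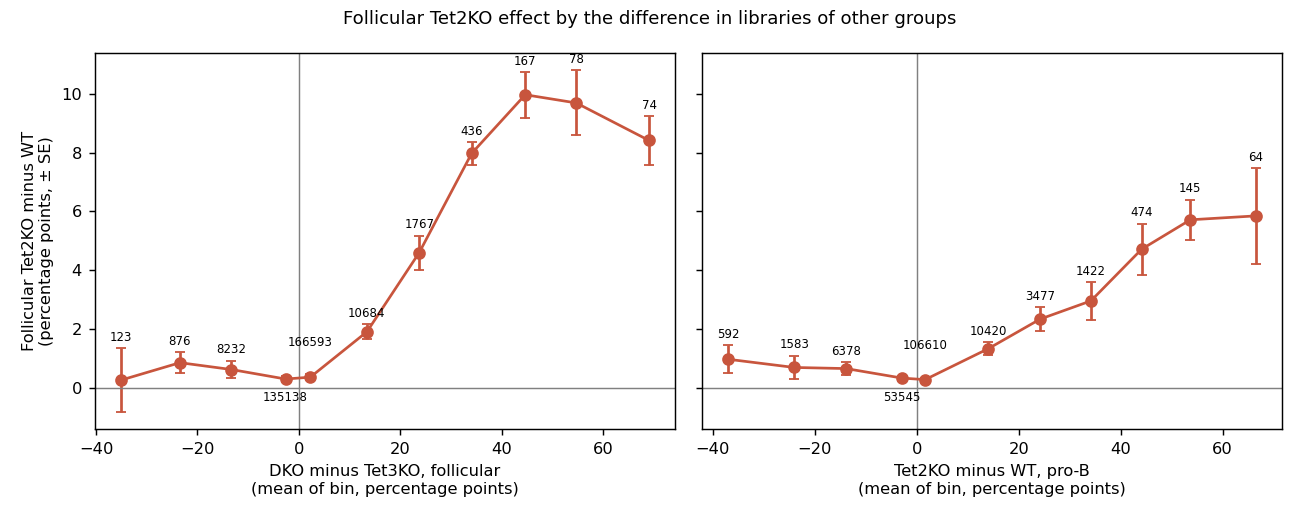
Follicular Tet2KO minus WT in percentage points (± SE, n = 3 each, tile number beside each point) for tiles binned by DKO minus Tet3KO in follicular cells (left) and by Tet2KO minus WT in pro-B cells (right), both from libraries not used on the vertical axis. The left curve rises from 0.362 points in the bin of 0 to 10 to 9.97 points in the bin of 40 to 50, and the bins below 0 stay under 1 point.

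The list was split by its level in Tet3KO. At the 439 list tiles under 20% in Tet3KO, WT stood at 8.39% ± 0.745 and Tet2KO at 11.9% ± 0.256, while DKO stood at 46.2% ± 3.84 (SD, n = 3 each). At the 575 tiles of 20 to 50% in Tet3KO, WT stood at 29.0% ± 0.658 and Tet2KO at 37.2% ± 0.388, with DKO at 69.5% ± 2.31. At the 663 tiles above 50% WT stood at 60.6% ± 1.15 and Tet2KO at 68.0% ± 0.2, with DKO at 90.5% ± 1.15. The Tet2KO differences were 3.54 (SE 0.455), 8.12 (SE 0.441) and 7.36 points (SE 0.673). The smallest was at tiles that were little methylated in Tet3KO. Tet2KO lay nearer to WT than to DKO in all 3 classes, though the DKO values had chosen the list. The list lay mostly outside dense CpG-rich stretches, with 3.52% of its tiles having 8 or more neighbours against 14.3% of all tiles.

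The most extreme tiles of that list were not those with the widest Tet2KO difference. Chromosome 17, 86866801 to 86866900, had the widest gap between DKO and Tet3KO, 93.7% against 0. It stood at 14.6%, 0 and 3.12% in the WT libraries and at 3.12%, 0 and 0 in Tet2KO, so it was nearly unmethylated in both genotypes. Pro-B cells of both genotypes were methylated there, at 95.2% and 96.4% in the 2 WT libraries with a value and 100% in all 3 Tet2KO libraries. Chromosome 6, 55244801 to 55244900, at 96.0% in DKO and 10.4% in Tet3KO, stood at 4.13%, 0 and 0 in WT and at 2.38%, 31.0% and 33.3% in Tet2KO, where library 16 overlapped WT. Chromosome 5, 149751601 to 149751700, at 91.1% in DKO and 11.5% in Tet3KO, stood at 8.08%, 12.7% and 16.7% in WT and 48.0%, 15.2% and 25.0% in Tet2KO, where library 17 overlapped WT.

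Pro-B cells give a further set of libraries in which Tet2 was lost. The pro-B WT and Tet2KO groups repeat the sexes of the follicular groups and may be the same mice. Sex and genotype can therefore hardly be told apart in them either. The list of tiles higher in pro-B Tet2KO than in pro-B WT, chosen by the same rule, held 1833 of 184710 tiles (0.992%), and the opposite list held 700 (0.379%). At the 1833 tiles the follicular WT libraries stood at 56.5%, 55.4% and 56.3% and the follicular Tet2KO libraries at 59.7%, 58.9% and 58.6%. The groups were apart, with a difference of 3.05 points (SE 0.474). The libraries separated upward at 226 tiles (12.3%, against 4.8% of all tiles) and downward at 61 (3.33%, against 3.04%), so the downward share was near that of all tiles. In the partly methylated class, which held 62.9% of this list, the shares were 7.47% upward and 3.82% downward. At the 700 opposite tiles the follicular difference was 0.699 points (SE 0.471) with overlap. Pro-B Tet2KO libraries had values at more tiles than pro-B WT libraries (402283 to 631415 against 314437 to 425669), and the part of that difference in the pro-B list was not tested. The 3 tiles with the widest pro-B gaps overlapped between the genotypes in follicular cells. Chromosome 15, 88303201 to 88303300, was at 80.8% ± 21.4 in follicular WT and 88.9% ± 9.68 in Tet2KO. Chromosome 8, 35072501 to 35072600, was at 72.3% ± 11.8 and 72.6% ± 11.6 (SD, n = 3 each). Chromosome 5, 131733501 to 131733600, ranged from 47.9% to 53.8% in WT and from 11.1% to 53.8% in Tet2KO.

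Tiles that lose methylation between the stages in Tet3KO cells were listed, so that neither WT nor Tet2KO libraries chose them. There were 1472 tiles at which the follicular Tet3KO libraries lay below pro-B Tet3KO libraries 7 and 9 by at least 20 points in the mean. Library 8, with values at 24600 tiles, was left out of that choice. In pro-B cells these tiles stood at 59.1% ± 3.24 in WT and 63.4% ± 1.69 in Tet2KO, over tiles with a value. The pro-B WT libraries, at 55.5% to 61.5%, overlapped the follicular WT libraries. The listed tiles were thus not shown to fall with stage in WT. Follicular WT libraries stood there at 57.4%, 56.2% and 56.5%, and Tet2KO libraries at 59.2%, 58.3% and 59.2%, a difference of 2.17 points (SE 0.457) without overlap. At the 7565 tiles that were higher in follicular than in pro-B Tet3KO cells it was 1.79 points (SE 0.317). The Tet2KO differences of the falling and the rising tiles thus lay within their errors of each other. The 3 falling regions with the widest stage gap were unmethylated in both genotypes and methylated in DKO. Chromosome 10, 116996601 to 116996800, stood at 0, 0.704% and 0 in WT, at 0, 6.40% and 1.14% in Tet2KO, and at 66.6% ± 8.03 in DKO. Chromosome 12, 36396401 to 36396500, was listed at 0 in the 3 WT libraries and at 0, 8.82% and 0 in Tet2KO, with DKO at 71.4% ± 5.08. Chromosome 15, 62001501 to 62001600, was listed at 0 in WT and at 0, 0 and 2.33% in Tet2KO, with DKO at 77.9% ± 2.01. At the 3 tiles of widest stage gain both follicular genotypes were highly methylated, between 70.3% and 97.2% in every library.

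Tiles at which follicular Tet2KO and WT were set apart by at least 20 points were then looked up in the other libraries. Of the 1925 higher tiles, 1100 had values in all 12 follicular libraries. At these, Tet3KO libraries stood at 61.5%, 65.2% and 65.3% and DKO libraries at 74.2%, 69.8% and 73.6%, a difference of 8.56 points (SE 1.84) against 0.334 points (SE 0.295) over all 324168 tiles. DKO libraries separated upward from Tet3KO at 257 of the 1100 (23.4%) and downward at 19 (1.73%), where 4.26% and 3.34% of all tiles did. In pro-B cells 572 of the higher tiles had all values. Pro-B WT libraries stood at 40.3%, 47.0% and 44.5% there and pro-B Tet2KO libraries at 55.8%, 56.9% and 48.2%, a difference of 9.70 points (SE 3.38) against 1.03 points (SE 0.445) over 184710 tiles. They separated upward at 63 of the 572 and downward at 13 (2.27%), where 3.69% and 2.46% of all tiles did. At 329 of the 696 lower tiles, DKO differed from Tet3KO by -0.285 points (SE 2.12), and at 162 of them pro-B Tet2KO differed from pro-B WT by 3.19 points (SE 3.50). DKO libraries separated upward from Tet3KO at 12 of the 329 tiles (3.65%) and downward at 20 (6.08%), where 4.26% and 3.34% of all tiles did. In pro-B cells the libraries separated upward at 14 of the 162 tiles (8.64%) and downward at 4 (2.47%). In pro-B cells the values of the higher and lower tiles lay within their errors of each other, and the difference between them was not tested in either cell type. In these means over 329 and 162 lower tiles, no decrease beyond the spread between libraries was therefore measured outside the libraries that chose them. Counted by tile, DKO against Tet3KO leaned downward at the lower tiles, and pro-B Tet2KO against pro-B WT leaned upward. The 1100 and 572 higher tiles had been chosen for follicular means of 42.9% in WT and 69.2% in Tet2KO, and of 36.7% and 62.9%, so both differences elsewhere are smaller than those that chose the tiles.

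**Figure D4:**
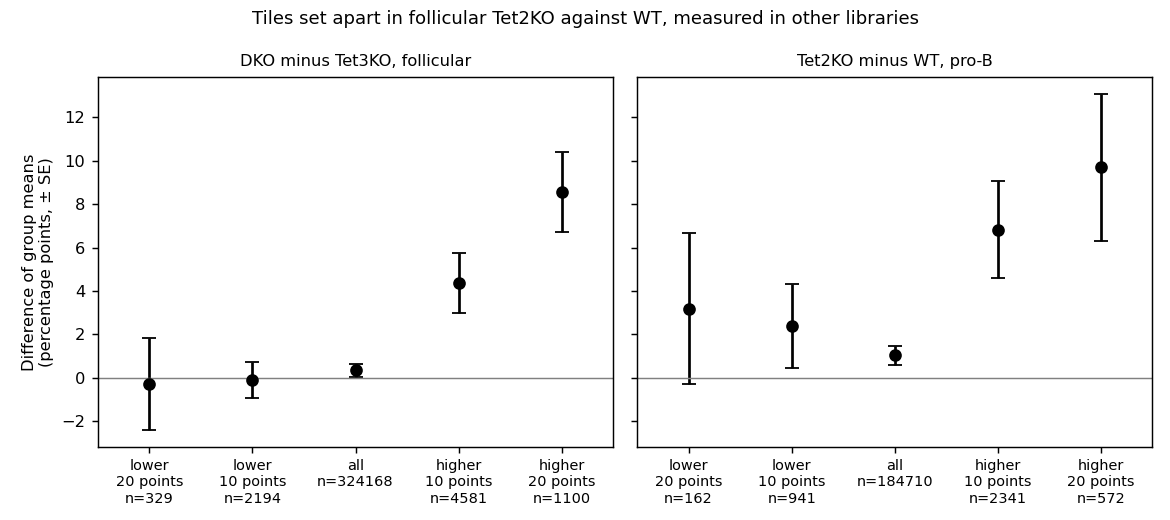
Tiles at which the 3 follicular Tet2KO libraries lay above or below the 3 WT libraries by at least 10 or 20 points, and all tiles, measured as DKO minus Tet3KO in follicular cells (left) and Tet2KO minus WT in pro-B cells (right), in percentage points ± SE (n = 3 each; tile numbers under the axis). Tiles higher in follicular Tet2KO by 20 points stand at 8.56 and 9.70 points, and the lower tiles of 20 points at -0.285 and 3.19 points with errors that reach 0 or beyond.

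The set-apart tiles of both directions were then described by their pro-B WT level and their setting. Partly methylated tiles in pro-B WT made up 38.0% of the 1925 higher tiles and 35.2% of the 696 lower tiles, against 10.6% of all tiles. Tiles with fewer than 2 pro-B WT values, which have no class, made up 33.8% and 38.9%, against 27.2%. Densely tiled positions made up 3.84% and 5.32%, against 14.3%. Both directions thus held more partly methylated tiles and fewer densely tiled ones than all tiles did. Tiles both partly methylated and isolated (0 to 3 neighbours) made up 388 of the 1925 and 135 of the 696, against 25061 of all 423656 tiles (5.92%). Among partly methylated tiles, 1.55% of the isolated and 1.81% of the more closely tiled (4 to 7 neighbours) were set apart upward. The higher tiles outnumbered the lower ones on every autosome, by 1.78 to 4.41 times. The threshold of 20 points cut through a continuous range: 476 tiles lay from 20 to 22 points higher (50.2% in WT, 71.1% in Tet2KO) and 599 just under it, from 18 to 20 points (52.1% and 71.0%).

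Neighbouring set-apart tiles were joined over at most 500 bp, which left 130 regions of at least 2 tiles higher in Tet2KO and 16 lower. These regions were chosen by the comparison itself, so their differences are descriptions and are overstated. Of the 130 higher regions 104 were also higher in DKO than in Tet3KO, with a median of 11.5 points, and 91 of the 124 with pro-B values were higher in pro-B Tet2KO than in pro-B WT, with a median of 14.3 points. Of the 16 lower regions 9 were higher and 7 lower in DKO than in Tet3KO (median 1.59 points), and of the 15 with pro-B values 4 were higher and 10 lower in pro-B Tet2KO (median -7.76 points). Of all single tiles with full values, 48.1% were higher in DKO than in Tet3KO (324168 tiles, median 0). In pro-B cells 44.7% were higher in Tet2KO than in WT (184710 tiles, median 0).

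The 10 widest higher regions were chosen for WT far below Tet2KO, so their low WT levels are not a result. In 9 of them the WT mean lay between 8.36% and 36.2%, and in all 10 the DKO mean lay between 71.3% and 96.7%. Chromosome 5, 149692001 to 149692200, stood at 31.0%, 16.8% and 21.7% in WT and 55.9%, 73.6% and 65.4% in Tet2KO, with Tet3KO at 55.6% ± 6.34 and DKO at 94.6% ± 1.96. Chromosome 11, 114113601 to 114113800, stood at 33.1%, 29.2% and 28.3% in WT and 54.5%, 75.8% and 80.6% in Tet2KO, with DKO at 96.5% ± 1.43. In pro-B cells this region stood at 16.7%, 4.29% and 23.3% in WT and 66.7%, 46.2% and 42.4% in Tet2KO, again without overlap. Chromosome 17, 6981601 to 6981800, was the least methylated in WT, at 7.60%, 6.17% and 11.3%, and stood at 48.8%, 49.2% and 34.9% in Tet2KO, 25.4% ± 2.64 in Tet3KO and 90.4% ± 4.68 in DKO. Its Tet2KO libraries lay above its Tet3KO libraries, though the region was chosen for its Tet2KO values.

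The remaining higher regions differed in how DKO and pro-B cells stood. Chromosome 11, 5908801 to 5909000, had the widest gap, from 26.1%, 43.7% and 30.1% in WT to 100%, 71.7% and 81.4% in Tet2KO. Tet3KO stood there at 27.7% ± 20.6 and DKO at 71.3% ± 19.1, with wide spread. Chromosome 11, 114736901 to 114737400, went from 36.7%, 33.7% and 32.9% to 83.3%, 70.6% and 78.1%, and its pro-B libraries from 0, 43.8% and 66.3% in WT to 84.7%, 73.2% and 95.8% in Tet2KO. Chromosome 8, 128240701 to 128240900, stood at 36.2% ± 4.77 in WT and at similar levels in the 3 knockouts, 75.4% ± 10.5 in Tet2KO, 74.6% ± 0.872 in Tet3KO and 80.9% ± 5.35 in DKO. At chromosome 8, 74795101 to 74795300, WT had 29.1% ± 5.6 and Tet2KO had 65.9% ± 5.15. Chromosome 15, 58880301 to 58880500, was at 25.6% ± 9.27 and 67.0% ± 12.8 in the same groups, with DKO at 90.1% ± 11.9. Chromosome 17, 27099101 to 27099400, was the most methylated in WT, at 74.2%, 54.2% and 43.9%, and stood at 92.6%, 92.7% and 94.8% in Tet2KO. Chromosome 8, 79965001 to 79965200, stood at 25.2% ± 7.94 and 67.9% ± 15.3 in follicular WT and Tet2KO, while pro-B Tet2KO cells had a mean of 27.9% there against 75.0% in the 1 pro-B WT library with a value.

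The lower regions were more scattered between libraries. Chromosome 17, 12962201 to 12962400, stood at 79.3%, 87.7% and 48.7% in WT and at 5.52%, 13.9% and 45.3% in Tet2KO. WT library 15 and Tet2KO library 18 nearly met there, the difference against library 15 alone was -27.1 points in place of -50.3, and pro-B Tet2KO libraries ranged from 1.48% to 93.9%. Chromosome 1, 137357201 to 137357400, leaned on Tet2KO library 18 at 15.4%, with libraries 16 and 17 at 83.0% and 78.9% and WT at 95.3% ± 5.72. Chromosome 19, 24950101 to 24950300, went from 43.5%, 58.2% and 49.9% to 32.6%, 12.3% and 9.18%, and stood at 45.2% ± 5.48 in Tet3KO and 11.9% ± 20.7 in DKO. At chromosome 5, 129006101 to 129006300, WT had 67.3% ± 10.5 and Tet2KO had 33.8% ± 8.06. Chromosome 18, 35687401 to 35687600, stood at 65.6% ± 7.26 and 34.4% ± 10.9, with Tet3KO and DKO at 88.0% ± 7.34 and 83.7% ± 7.92. At the other 5 lower regions the differences were -26.9 to -40.4 points. Of these, chromosome 15, 79726101 to 79726300, differed by -33.8 points from all WT libraries and by -9.06 points from the female one. The smallest limma adjusted p of any tile in the 10 higher regions was 0.0921, and in the 10 lower regions 0.853.

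**Figure D5:**
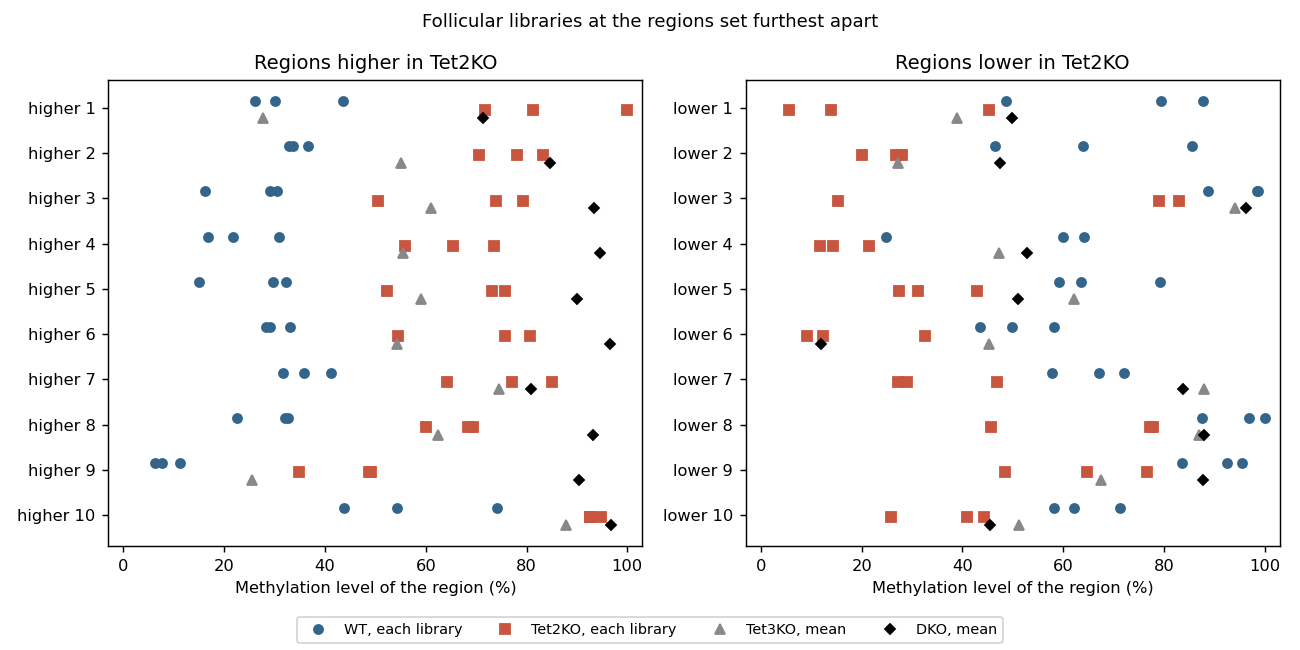
Methylation level (%) at the 10 regions furthest above WT (left) and furthest below WT (right) in follicular Tet2KO, in order of the mean difference, with WT libraries as circles, Tet2KO libraries as squares, and the Tet3KO and DKO means as triangles and diamonds. On the left the DKO mean lies at 71.3% or above in every region. On the right the Tet3KO and DKO means lie below the WT mean in most regions, which were chosen for WT above Tet2KO. At chromosome 18, 35687401 to 35687600, both lie above it (88.0% and 83.7% against 65.6%).

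Tet2KO and Tet3KO were compared directly, since both share the WT libraries. At the partly methylated tiles with values in all 12 follicular libraries (35969 tiles), WT stood at 67.5% ± 0.558 and Tet2KO at 68.9% ± 0.153, while Tet3KO stood at 70.7% ± 1.22 and DKO at 71.6% ± 1.42 (SD, n = 3 each). Tet3KO lay 1.72 points above Tet2KO (SE 0.708, exact permutation p = 0.1, n = 3 each), with no overlap of libraries. The step from Tet3KO to DKO was 0.980 points (SE 1.08, exact permutation p = 0.5, n = 3 each). It differed from the step from WT to Tet2KO by -0.446 points (SE 1.13). Tile by tile, limma called 7 tiles higher in Tet3KO than in Tet2KO (0.00166%) and 22 lower (0.0052%). Of the 22 lower tiles 14 rested on 1 Tet3KO value, and none of the 22 had all 3. Without Tet2KO library 16, 17 or 18 the 7 higher tiles became 18, 30 or 22.

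The Tet2KO effect was also compared between the stages. Limma's interaction of stage and genotype over 300730 tiles called 27 tiles where the effect was higher in follicular than in pro-B cells (0.00898%) and 110 where it was lower (0.0366%). At the 110 tiles the pro-B medians were 53.6% in WT and 99.3% in Tet2KO, while follicular cells stood at 95.2% in both genotypes. At the 27 tiles pro-B WT had a median of 100% and pro-B Tet2KO of 64.8%, with follicular medians of 87.5% and 96.0%. These differences thus lay mostly in the pro-B libraries, and 103 of the 110 and 19 of the 27 tiles rested on 2 pro-B WT values. On logit values the 2 counts were 41 and 37, so that the excess of lower tiles was not seen there.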

How the data were processed

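RRBS fractions of 24 mouse libraries were analysed; the 16 RNA sequencing samples of the series were not analysed here. The authors deposited a single table with a methylation fraction (0 to 1) per 100 bp tile and library, without counts. The submitters' processing notes list Trim Galore, methylKit and the builds mm9 and hg19, with no version for the tools. Chromosome 1 extends to 197193600 in the table, so its coordinates are mm9. Conversion rate, aligner and coverage minimum: not given in the sources used here. Tables of gene positions and promoters at hand are of another build, so regions carry no gene names or sequences.

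Fractions were multiplied by 100. Limma 3.58.1 (R 4.3.3, with the data.table package, version 1.17.8) was fitted with genotype as a factor over the 12 follicular libraries, with a trended prior spread. Values missing in Tet3KO or DKO were left out of the fit, not imputed. The procedure was tested on simulated data. Means per library were tested between groups by exact permutation, two-sided (Python 3.11.15). Levels of regions are means over their tiles.

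Regions named were all called tiles, the 10 widest per direction among regions of at least 2 neighbouring tiles with separate libraries and 20 points, and the 3 widest of each list from other libraries; others were named after their values were seen. The comparison and lists were chosen with earlier results of these data known. Alternatives were logit values, other sets of libraries or tiles, sex, age, centring, 10 and 30 points, females only, and each library left out. Added after the data were seen were tiles of 20 to 80% over the follicular libraries and classes from Tet3KO and DKO.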

Additional observations from a re-analysis of the deposited data

Results flagged for a closer look

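The Tet2KO effect differed between the stages, by limma's interaction test, at 27 tiles where it was higher and 110 where it was lower in follicular than in pro-B cells, of 300730 tested. Limma also separated follicular Tet3KO from Tet2KO at 7 tiles with Tet3KO higher and 22 with Tet3KO lower, and medians at these were 31.3% in Tet3KO against 0 in Tet2KO, and 73.6% against 100%. Of the 22 lower tiles 14 rest on 1 Tet3KO value and none on 3, and at tiles with values in all 12 follicular libraries both counts were 0. Groups of 3 libraries are too small for a search for single outlying libraries.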

How the results depend on the processing

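The count of 0 tiles higher in Tet2KO became 2 on logit values, 9 with all 24 libraries fitted, 7 with sex as a covariate, 6 at 10 points and 4 with values in 2 of 3 libraries, and 1 to 24 with 1 library left out. The count of 0 lower became 2 on logit values, 1 with sex as a covariate, 2 at 10 points and 1 to 17 with 1 library left out. Both stayed at 0 with only the 6 libraries fitted, age as a block, centring, 30 points, X and Y kept, tiles complete in 12 libraries and tiles of 20 to 80%. Of Tet3KO against Tet2KO, the 7 higher tiles became 23 on logit values, 2 at 30 points, 22 at 10 points, 54 with values in 2 of 3 libraries, and 0 at tiles complete in 12 libraries or of 20 to 80% (5 to 30 with 1 library left out). The 22 lower became 14 after centring, 5 at 30 points, 60 at 10 points, 81 with values in 2 of 3 libraries, and 0 at tiles complete in 12 libraries or of 20 to 80% (16 to 27 with 1 left out). The stage counts of 27 and 110 became 41 and 37 on logit values (18 to 31 and 83 to 101 with 1 left out).

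Centring moved the difference over all tiles from 0.458 to 0.0215 points, at low tiles to -0.0795, at high tiles to -0.177 and at partly methylated tiles from 1.39 to 0.950, as it removes the mean shift by construction. Low tiles complete in 12 libraries differed by 0.319 points, and partly methylated tiles chosen on Tet3KO and DKO by 1.78. Tiles higher in DKO than Tet3KO differed by 7.27 points in females and 8.94 in a list at 30 points. The pro-B list gave 3.90 and the falling list 3.51 points at 30 points. With 1 library left out, the ranges were 0.351 to 0.550 over all tiles, 0.329 to 0.375, 1.14 to 1.66 and 0.141 to 0.338 in the low, partly methylated and high classes, and 6.30 to 7.10, 2.71 to 3.29 and 1.94 to 2.50 in the DKO, pro-B and falling lists. At the 32 named regions, the differences against the female WT library alone moved by more than the spread between libraries at 7. The 192 differences with 1 library left out moved by less, but could not have moved by more. That spread comes from the same 3 libraries per group, so this comparison cannot show stability. At 4 regions whose genotypes overlap, the sign turned in some setting, as at chromosome 15, 88303201, from 8.17 to -1.08 points in females. For all other changes the cause was not tested. No paired analysis was possible because the WT and Tet2KO libraries share no replicate number. Depth is unknown, so no counting interval could be given.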

Other observations

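A group of 67 tiles was higher both in follicular DKO than in Tet3KO and in pro-B Tet2KO than in pro-B WT, in libraries that took no part in the follicular comparison of Tet2KO and WT. This group was formed after the data were seen. Its pro-B libraries repeat the sexes of the follicular WT and Tet2KO libraries and may come from the same mice. Follicular WT libraries stood there at 28.9%, 27.9% and 27.2% and follicular Tet2KO libraries at 41.6%, 36.5% and 35.9%, a difference of 9.95 points (SE 1.86). The 3 Tet2KO libraries lay above the 3 WT libraries at 26 of the 67 tiles (38.8%, against 4.8% of all tiles) and below them at 1 (1.49%, against 3.04%, which is near it for so few tiles), and the median tile was 10.4 points higher.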
